A study of Mus musculus and Mus musculus
Oryx dammah with 30 samples.

Results

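RNA of mouse NT embryos that were cultured with α-amanitin was compared between two-cell and four-cell recipients. The comparison covered 9 of the 30 samples of the study, all those with C2C12 donor cells and α-amanitin, 6 of them two-cell and 3 four-cell. Two-cell libraries were taken by the letters Am in the column names of the two-cell table, and four-cell libraries by the name AmanitinControl in the C2C12 table.

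The NT embryos were made from BDF1 embryos, with C57BL/6 and DBA/2 genomes, into which C2C12 cells, a myoblast line of C3H origin, had been fused. C2C12 is 1 established line, and each library pooled 5 two-cell or 3 four-cell embryos, so that no value is of a single embryo. Demecolcine, which blocks the spindle, was present at 0.1 µg/ml in all groups, also in the untreated ones. NT was started at 21 hours post insemination (hpi) for early two-cell, 30 hpi for late two-cell and 46 hpi for four-cell embryos, and the cultures ended at 45, 54 and 70.0 hpi. Libraries without α-amanitin, 6 two-cell and 3 four-cell, came from the same tables and served as the background.

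The toxin α-amanitin of Amanita mushrooms stops transcription by RNA polymerase II (Pol II). The oocyte stores RNA for the first divisions, and much of this maternal RNA is cleared while the embryonic genome is switched on, in the mouse mainly at the two-cell stage. RNA found under α-amanitin is therefore read as RNA made mainly before the treatment, by the oocyte, by the embryo up to NT or by the donor cell.

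The two-cell columns carried 2 names, Am1 to Am3 and RAm1 to RAm3, and neither name says which was early and which late. The sets stood apart. Across 13754 genes, Pearson's r of log2(FPKM + 1) had a median of 0.94 between Am libraries, 0.88 between RAm libraries and 0.91 between four-cell libraries, but of 0.60 between Am and RAm, 0.58 between Am and four-cell and 0.30 between RAm and four-cell. These correlations are across genes, those with four-cell libraries also between tables, and are given as a description. Values of genes are therefore given for Am and RAm apart, and counts of most lists for both sets together and then for each set. FPKM, the fragments per kilobase of exon scaled to the total of the library, were calculated by the authors within each library.

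Stage and table cannot be told apart, since each stage had a table of its own, and the tables counted reads differently. Of the values of the treated four-cell libraries 99.91% to 99.99% were whole reads, within 0.02 of a read, but of those of the treated two-cell libraries only 40.7% to 44.68%. Pseudogenes took 31.91% to 36.12% of the reads in Am, 49.56% to 54.74% in RAm and 1.824% to 2.228% in four-cell libraries. Mitochondrial genes took 11.44% to 18.99% of the four-cell reads and had no rows in the two-cell table. Reads per library numbered 4712269 to 9327401 in Am, 6988462 to 9448313 in RAm and 1136771 to 3101006 in the four-cell libraries, which limits the precision of low values most in the last. No test was made between the tables.

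**Figure D1:**
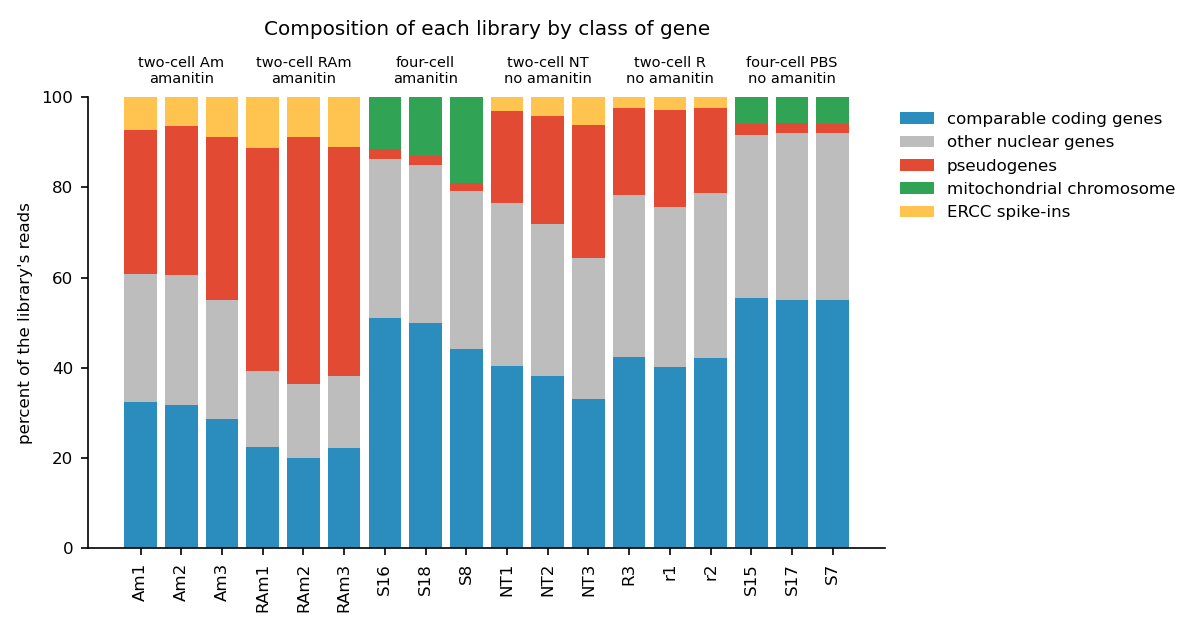
Percent of each library's reads (y axis) by class of gene, for the 9 treated libraries on the left and the 9 untreated ones on the right. Pseudogenes (red) take 31.91% to 54.74% in treated two-cell libraries and 1.824% to 2.228% in treated four-cell ones, where mitochondrial genes (green) take 11.44% to 18.99%.

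For this reason a second set of values was used, chosen after the data had been seen. It holds 13655 protein-coding genes with a proper name, similar gene lengths in both tables and at least 90% of their transcript windows of 31 bases in no other gene, and each library was rescaled over them. They are called comparable genes. They held 28.74% to 32.32% of the reads in Am, 20.06% to 22.44% in RAm and 44.22% to 50.95% in four-cell libraries. A large difference was a difference of at least 4-fold between the medians of log2(FPKM + 1), with no overlap between the libraries of the stages in level or in rank.

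Among the genes with large differences, oocyte coat genes and maternal regulators were higher in two-cell embryos, joined by decay factors over the comparable genes. Genes such as Sycn, Timd2 and Hprt were higher in four-cell embryos, as were many proteasome subunits and ribosomal proteins as deposited. Over the comparable genes 9 of 21 proteasome and 2 of 8 ribosomal protein genes were, or 2 and 0 with Am alone. As deposited, 1612 of 13754 genes were higher in two-cell libraries (11.7%) and 1379 in four-cell libraries (10%). The sides differed in kind. Of the 1612, 722 were pseudogenes and 540 protein coding, whereas of the 1379, 1334 were protein coding and 22 pseudogenes. In addition, 703 of the 1612 were listed at 0 in every four-cell library. Over the comparable genes, 596 of 5992 were higher in two-cell (9.95%) and 239 in four-cell libraries (3.99%). Of the 1379 genes, 805 were comparable genes and 239 of these were called in that direction after rescaling too. All 228 comparable genes among the 1612 were called after rescaling too. The median difference over all genes tested was 0.60 on the log2 scale as deposited and 0.64 over the rescaled comparable genes, and single differences are to be read against it.

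The two-cell sets differed in how far they were from the four-cell libraries. Over the comparable genes, Am alone gave 645 genes higher in two-cell (10.8%) and 121 higher in four-cell libraries (2.02%). RAm alone gave 1304 (21.8%) and 644 (10.7%). Pearson's r over these genes had a median of 0.73 between Am and four-cell and of 0.31 between RAm and four-cell libraries.

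**Figure D2:**
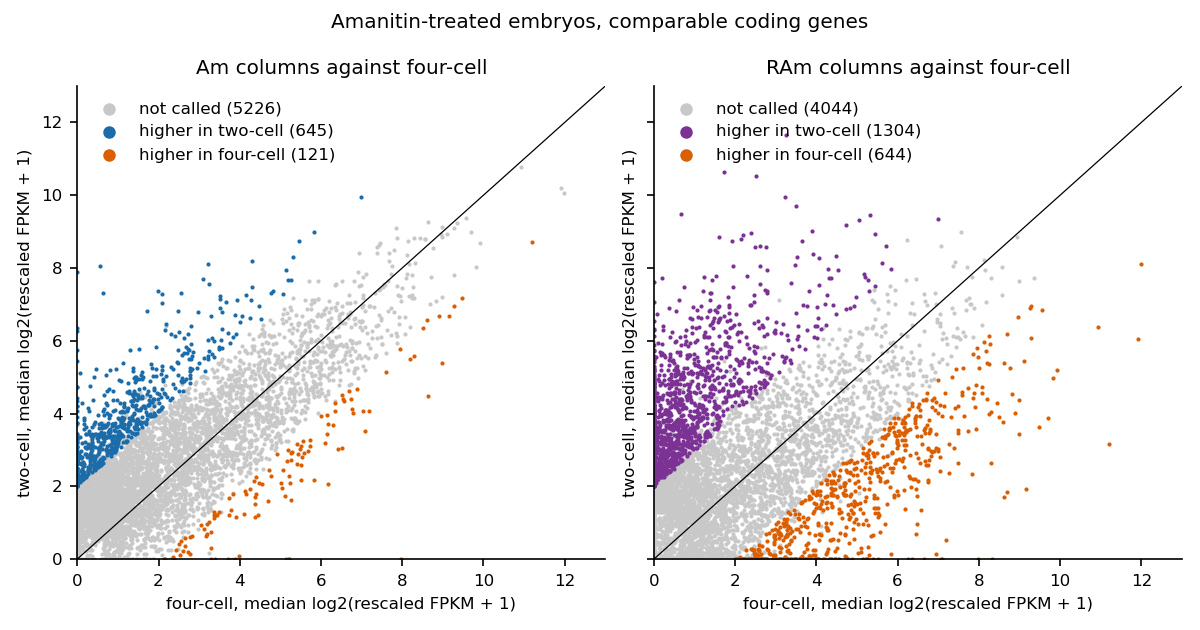
Median log2(rescaled FPKM + 1) of 5992 comparable genes in four-cell (x axis) and two-cell libraries (y axis), all with α-amanitin, with Am on the left and RAm on the right. Coloured points are large differences, and the line marks equal levels. RAm gives more coloured points than Am on both sides, 1304 and 644 against 645 and 121.

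Among genes with a proper name, those with the largest differences towards two-cell embryos on the scale as deposited were Prl2c2, Prl2c3, Rn7s2, Tcl1b3, Rn7s6, Oog1, Rny1, Taf9, Zfp982 and Zfp980. 0 of them had 90% of its sequence to itself, so that their levels depend on how reads shared with copies were counted and are uncertain. Prl2c2, a proliferin with near-identical copies, was listed at 2712, 5079 and 3400.0 FPKM in Am, at 1.55, 460.4 and 37.0 in RAm, and at 0 in each four-cell library. The highest values of the two-cell libraries, of genes in both tables, were listed under pseudogenes, Gm10925, Gm28437, Gm28661, Gm29216 and Gm11410. Of their windows, 0% were in no other gene for Gm10925, Gm28437 and Gm28661, 5.08% for Gm29216 and 95.3% for Gm11410. Reads listed under names with few such windows can stem from other genes. Mitochondrial genes had no rows for the two-cell libraries, and which RNA these reads came from was not tested. Gm10925 had 51.37, 42.82 and 89.12 FPKM in the four-cell libraries, 12.09 lower on the log2 scale than in two-cell libraries. How much of these differences is counting was not tested.

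Among the comparable genes, the 10 with the largest differences towards two-cell embryos were led by Unc13c, Nqo1, Ccdc69 and Oosp1. Unc13c, a synaptic vesicle priming protein by its family, had 108, 122 and 104 FPKM in Am, 873, 736 and 961 in RAm, and 4.11, 1.80 and 7.66 in four-cell libraries. Oosp1, an oocyte-secreted protein, had 305, 151 and 176 in Am, 1761, 1780.0 and 434 in RAm, and 15.3, 8.14 and 51.1 in four-cell libraries. For both, every two-cell library was above every four-cell library, and RAm was above Am without overlap. The differences of medians over rescaled values were 7.0 and 5.75 on the log2 scale.

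Nlrp9c, an oocyte NLR family gene, had 59.6, 91.7 and 80.3 FPKM in Am, 239.9, 249 and 237 in RAm, and 3.48, 6.52 and 8.48 in four-cell libraries (difference 5.48). Nexn, which encodes an actin-binding protein of muscle and other cells, had 205, 316 and 258 in Am, 407, 622 and 493 in RAm, and 18.5, 10.8 and 14.97 in four-cell libraries (5.70). Ccdc69 had 34.1, 10.96 and 15.3 in Am, 393, 175 and 396 in RAm, and 1.05, 0 and 4.43 in four-cell libraries (6.09). These 3 genes kept the order RAm, Am, four-cell without overlap. Nqo1, a quinone reductase, was the opposite within the two-cell stage. It had 275, 291 and 204 FPKM in Am, 34.3, 26.4 and 34.7 in RAm, and 0.831, 0 and 2.43 in four-cell libraries (6.42). The others of the 10 were Fam199x, Ptcra, Cpa1 and Accsl.

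**Figure D3:**
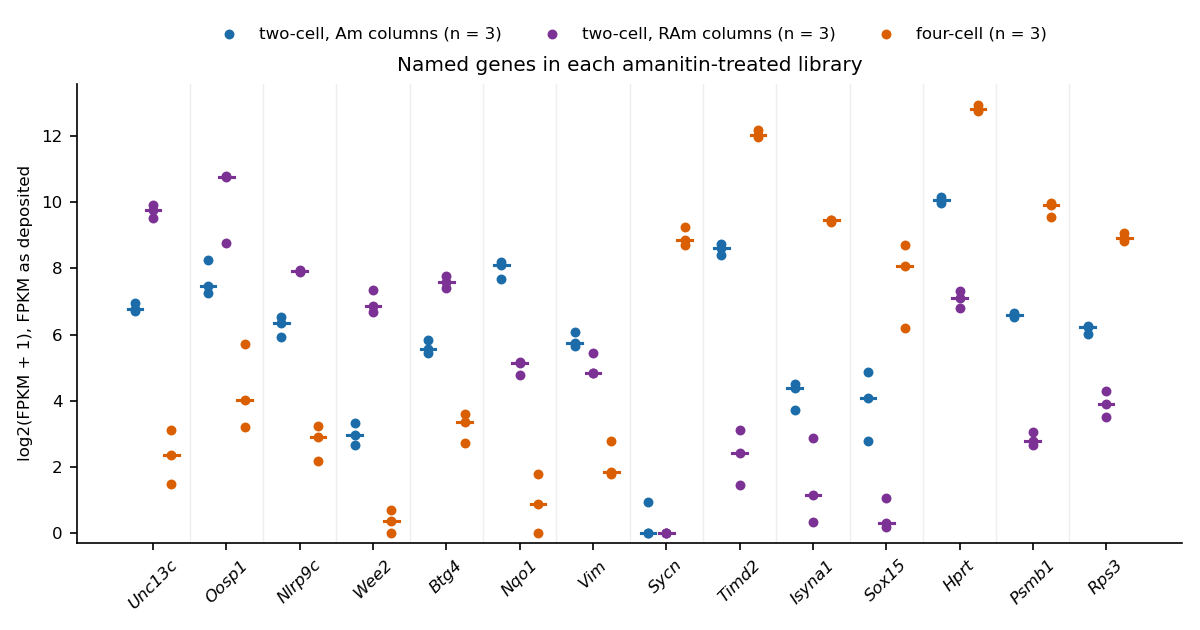
log2(FPKM + 1) as deposited (y axis) of 14 named genes in each treated library, with bars at the medians of the 3 libraries of a set. Unc13c to Vim are higher in every two-cell than in every four-cell library, Sycn to Rps3 are lower, and Am and RAm lie apart for most genes.

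Toward four-cell embryos the largest differences as deposited, among genes with a proper name, were Sycn, Sfn, Crygs, Timd2, Isyna1, Sox15, Smpdl3a, Sord, Prl3b1 and Agpat2. Sycn, named for a protein of pancreatic secretory granules, was listed at 0, 0 and 0.912 FPKM in Am and at 0 in each RAm library, against 415, 460.4 and 609 in four-cell libraries. Timd2, a cell surface receptor, had 431, 342 and 389.6 in Am, 4.31, 7.56 and 1.72 in RAm, and 4206, 4678 and 4051 in four-cell libraries. Isyna1, the enzyme that makes inositol phosphate from glucose phosphate, had 21.9, 12.1 and 20.1 in Am, 1.22, 6.32 and 0.250 in RAm, and 706, 676 and 704 in four-cell libraries. All 3 genes were far above the two-cell libraries in every four-cell library, and of these Timd2 and Isyna1 were also higher in Am than in RAm without overlap.

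Sox15, a transcription factor of the SOX family, had 28.4, 15.9 and 5.89 FPKM in Am, 0.123, 0.228 and 1.05 in RAm, and 419, 268 and 73.1 in four-cell libraries. Hprt, an X-linked enzyme of purine salvage, was among the 5 highest genes of the four-cell libraries, of those in both tables, with 7272, 7878 and 6993 FPKM, against 1079, 1152 and 1001 in Am and 111, 158 and 136 in RAm. Rescaled over the comparable genes, the differences were -7.97 for Sycn, -4.99 for Timd2, -4.90 for Isyna1, -4.93 for Sox15 and -2.83 for Hprt on the log2 scale. Sfn, Crygs and Sord were not among the comparable genes. Smpdl3a, Prl3b1 and Vpreb3, listed at 0 in all 3 Am libraries, had 37.8 to 145, 24.2 to 80.0 and 51.2 to 73.3 FPKM in four-cell libraries.

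Cytoplasmic polyadenylation and deadenylation act through the end of the 3′ UTR, and the polyadenylation signal AATAAA or ATTAAA and the U-rich element TTTTAT or TTTTAAT, known as the cytoplasmic polyadenylation element, lie there. The last 100 bases of the longest coding transcript were therefore searched on the transcript strand, in GENCODE vM21 models on mm10. Of the named comparable genes with a signal, 5 of 17 higher in two-cell and 0 of 13 higher in four-cell libraries held the U-rich element upstream of or overlapping the last signal, both within 30 bases, and 8 of the 17 and 1 of the 13 held the U-rich element anywhere in the 100 bases. Named genes of 1 chromosome and those with a 3′ UTR under 100 bases are not in these counts. The named genes were picked for their differences or levels. The share of such pairs over all comparable genes was not counted, so these counts are no result about the stages. The sites shown were picked to show an end with both, as in Bcl2l10, Wee2, Nqo1 and Zbed3, and ends with the signal but no such upstream pair, as in Unc13c and Cnot6l, also higher in two-cell libraries, and in Psma6, Hprt, Cct5 and Smpdl3a, higher in four-cell libraries. Smpdl3a has a U-rich element elsewhere in its last 100 bases. Capitals mark 1 polyadenylation signal, the last found when copies that overlap an earlier one are passed over. They also mark 1 U-rich element, the last that starts before it, and both can overlap as TTTTAATAAA. Other copies stay in lower case, such as TTTTAT after the signal in Zbed3 and a later, overlapping AATAAA in Hprt. The sites are chr9:75351590-75351619 (plus strand) for Bcl2l10, chr6:40466766-40466795 (plus) for Wee2, chr8:107388235-107388264 (minus) for Nqo1, chr13:95337807-95337836 (plus) for Zbed3, chr9:73479436-73479465 (minus) for Unc13c, chr5:96070340-96070369 (minus) for Cnot6l, chr12:55418421-55418450 (plus) for Psma6, chrX:53021627-53021656 (plus) for Hprt, chr15:31590817-31590846 (minus) for Cct5 and chr10:57811784-57811813 (plus) for Smpdl3a, all in 3′ UTR sequence of the gene.
Bcl2l10: tTTTTAATaacttcaaattcttAATAAAtg
Wee2: taTTTTAATccagatcattgtaAATAAAga
Nqo1: tttttttTTTTAATcgaAATAAAtgaatac
Zbed3: ccttttttttTTTTAATAAActtttattta
Unc13c: gacatatgcattAATAAAtggatgtgtatt
Cnot6l: ttccctgtaggcAATAAAtggccattttgc
Psma6: ggactctgtataAATAAAacagtgcttttg
Hprt: cttttaaatgcaAATAAAtaaattctaaaa
Cct5: tgtagatgctggAATAAAagcagctgtctg
Smpdl3a: tgtcatctatgcAATAAAgcagttgatttt

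The U-rich element was found in 147 of 583 genes higher in two-cell libraries (25.2%), in 26 of 223 higher in four-cell libraries (11.7%) and in 1210 of 5782 of all comparable genes tested (20.9%). The polyadenylation signal was found in 87.0%, 80.3% and 82.9%. The ends also differed in bulk composition. A and T bases made up 67.5%, 59.5% and 64.4% of the windows, and the median 3′ UTR was 1698, 483 and 1110.0 bases long. The Pumilio motif TGTANATA was found in 6.86%, 3.59% and 5.02%, and the AU-rich pentamer ATTTA in 26.1%, 17.0% and 23.9%. These shares are a description, and the part of base composition in them was not tested.

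Oocyte coat and secreted protein genes were among the lists higher at the two-cell stage. Of 11 comparable genes of this list tested, 4 were called higher in two-cell and 0 in four-cell libraries, with a median difference of 3.47 on the log2 scale, 2.27 for Am, where 4 of the 11 were called, and 4.95 for RAm, where 9 were. Their share of the summed FPKM of the comparable genes was 0.518%, 0.349% and 0.384% in Am, 5.71%, 6.16% and 2.16% in RAm, and 0.0446%, 0.0240% and 0.0941% in four-cell libraries. The 3 sets did not overlap. As deposited the share was 0.299% to 0.338% in Am, 0.370% to 0.674% in RAm and 0.166% to 0.228% in four-cell libraries, also without overlap. The ratio of the medians, two-cell over four-cell, was 1.69 as deposited and 30.0 over the comparable genes. As deposited 5 of 14 genes were higher in two-cell and 1 in four-cell libraries, where all genes gave 11.7% and 10%. Oosp3 had 77.0, 78.1 and 50.4 FPKM in Am, 807, 973 and 203 in RAm, and 16.9, 1.07 and 8.41 in four-cell libraries. Gdf9, a growth factor that the oocyte secretes, had 25.1, 10.3 and 18.04 in Am, 20.9, 16.2 and 34.6 in RAm, and 2.86, 2.17 and 5.58 in four-cell libraries, so that its Am and RAm values overlapped. Its partner Bmp15 had 3.54, 16.5 and 11.9 in Am, 205, 113 and 107 in RAm, and 4.11, 3.45 and 3.08 in four-cell libraries. Bmp15 was thus no large difference over all two-cell libraries, because Am reached down into the four-cell range. Zp3, a protein of the zona pellucida, overlapped between the stages. It had 63.6, 52.1 and 42.7 FPKM in Am, 22.7, 11.7 and 29.5 in RAm, and 29.7, 23.3 and 74.2 in four-cell libraries.

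Cd9, an oocyte membrane protein needed for sperm fusion and also expressed by other cells, was the list's member higher in four-cell libraries as deposited. It had 360.1, 446 and 350.4 FPKM in Am, 63.6, 79.1 and 50.8 in RAm, and 912, 776 and 1074 in four-cell libraries, and was not a comparable gene.

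The subcortical maternal complex, which oocytes assemble under the membrane, held 5 comparable genes, of which 2 were called higher in two-cell libraries (median difference 2.80), 1 with Am alone and all 5 with RAm alone. All comparable genes gave 9.95%, 10.8% with Am alone and 21.8% with RAm alone. As deposited 1 of 8 was higher in two-cell and 1 in four-cell libraries, near the 11.7% and 10% of all genes. The list's share of the summed FPKM overlapped there, at 0.00877% to 0.0399% in two-cell and 0.00790% to 0.0157% in four-cell libraries. Zbed3 had 42.8, 30.8 and 25.7 FPKM in Am, 109.9, 64.2 and 152 in RAm, and 3.04, 3.15 and 7.90 in four-cell libraries. Ooep had 4.62, 4.16 and 6.67 in Am, 19.9, 28.7 and 18.7 in RAm, and 0.453, 0.823 and 2.35 in four-cell libraries. Both were ordered RAm, Am, four-cell without overlap. Padi6, also of the complex, did not separate the stages, with 10.6 to 17.2 in Am, 27.1 to 58.8 in RAm and 14.2 to 29.2 in four-cell libraries. Khdc3, with 63.2% of its windows unique, was higher in four-cell libraries, at 14.2 to 37.3 against 0.392 to 3.03 FPKM in the two-cell ones.

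Maternal and oocyte regulators included genes called in 1 direction over the comparable genes, 11 of 21 higher in two-cell and 0 in four-cell libraries (median difference 2.99). With Am alone 10 of the 21 were called, and with RAm alone 15. Bcl2l10, an antiapoptotic BCL2 family protein abundant in oocytes, had 22.1, 11.3 and 10.7 FPKM in Am, 56.5, 61.2 and 62.2 in RAm, and 0.529, 3.60 and 0 in four-cell libraries. Dppa3, a maternal factor that protects DNA methylation, went the other way as deposited. It had 7576, 7222 and 6623 FPKM in Am, 842, 1298 and 689 in RAm, and 12110.0, 13390.0 and 15930.0 in four-cell libraries, where it was 1 of the 5 highest genes of those in both tables. Dppa3 has 69.8% of its windows to itself and is not a comparable gene. Dppa3 alone made up 83.66% to 85.5% of the summed FPKM of the list in Am, 17.55% to 31.41% in RAm and 85.25% to 95.92% in four-cell libraries. As deposited the share of the whole list in the summed FPKM was 0.422% to 1.17% in two-cell and 2.80% to 2.81% in four-cell libraries. Without Dppa3 it was 0.140% to 0.183% in Am, 0.306% to 0.384% in RAm and 0.114% to 0.412% in four-cell libraries, so that both two-cell sets overlapped with four-cell embryos. Over the comparable genes, which leave out further members and were rescaled, it was 0.536% to 0.602% in Am, 2.33% to 2.79% in RAm and 0.0777% to 0.134% in four-cell libraries.

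Factors of mRNA storage, deadenylation and decay, which clear maternal RNA, counted 8 of 24 comparable genes higher in two-cell and 0 in four-cell libraries (median difference 1.40), 7 with Am alone and 12 with RAm alone. As deposited only 3 of 30 were higher in two-cell libraries, under the 11.7% of all genes, and 1 in four-cell libraries. Btg4, the adapter that brings the CCR4-NOT deadenylase to maternal mRNA, had 42.0, 56.4 and 46.3 FPKM in Am, 169.7, 217 and 193 in RAm, and 9.21, 5.51 and 11.1 in four-cell libraries. Cnot6l, a catalytic subunit of that deadenylase, had 12.4, 12.4 and 8.70 in Am, 23.7, 26.04 and 24.1 in RAm, and 0.719, 0.597 and 0.549 in four-cell libraries. The decapping enzyme Dcp2 had 9.61, 11.3 and 6.45 in Am, 19.2, 17.1 and 26.3 in RAm, and 2.85, 0.505 and 1.59 in four-cell libraries. All 3 were ordered RAm, Am, four-cell from high to low without overlap. Cnot7, also a catalytic subunit, had 47.3 to 51.8 FPKM in Am and 33.7 to 61.7 in four-cell libraries, which overlapped, against 209.7 to 315 in RAm.

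Cell cycle genes of the oocyte had 1 of 14 comparable genes called, Wee2 (median difference 0.24). With Am alone 1 was higher in two-cell and 1 in four-cell libraries, and with RAm alone 2 and 3. All comparable genes gave 9.95% and 3.99%, 10.8% and 2.02% with Am alone, and 21.8% and 10.7% with RAm alone. As deposited 1 of 22 was higher in two-cell and 4 in four-cell libraries (median difference -1.06), where all genes gave 11.7% and 10%. The sign of the median thus depends on the scale. Wee2, an oocyte kinase that holds back CDK1, had 9.06, 5.29 and 6.78 FPKM in Am, 116, 101 and 164 in RAm, and 0.616, 0.280 and 0 in four-cell libraries. Cdk1 itself had 25.9, 17.3 and 25.6 in Am, 1.03, 5.74 and 1.65 in RAm, and 70.4, 109 and 51.7 in four-cell libraries. Ccne1, which encodes cyclin E1, had 50.9, 42.8 and 48.8 in Am, 3.54, 4.25 and 0.645 in RAm, and 66.5, 76.3 and 54.9 in four-cell libraries. Wee2 and Cdk1 thus stood at opposite ends in the sets with no overlap, and Ccne1 differed more between Am and RAm than between Am and four-cell libraries. Rescaled, Ccne1 was 0.41 higher on the log2 scale in Am and 2.34 lower in RAm than in four-cell libraries.

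**Figure D4:**
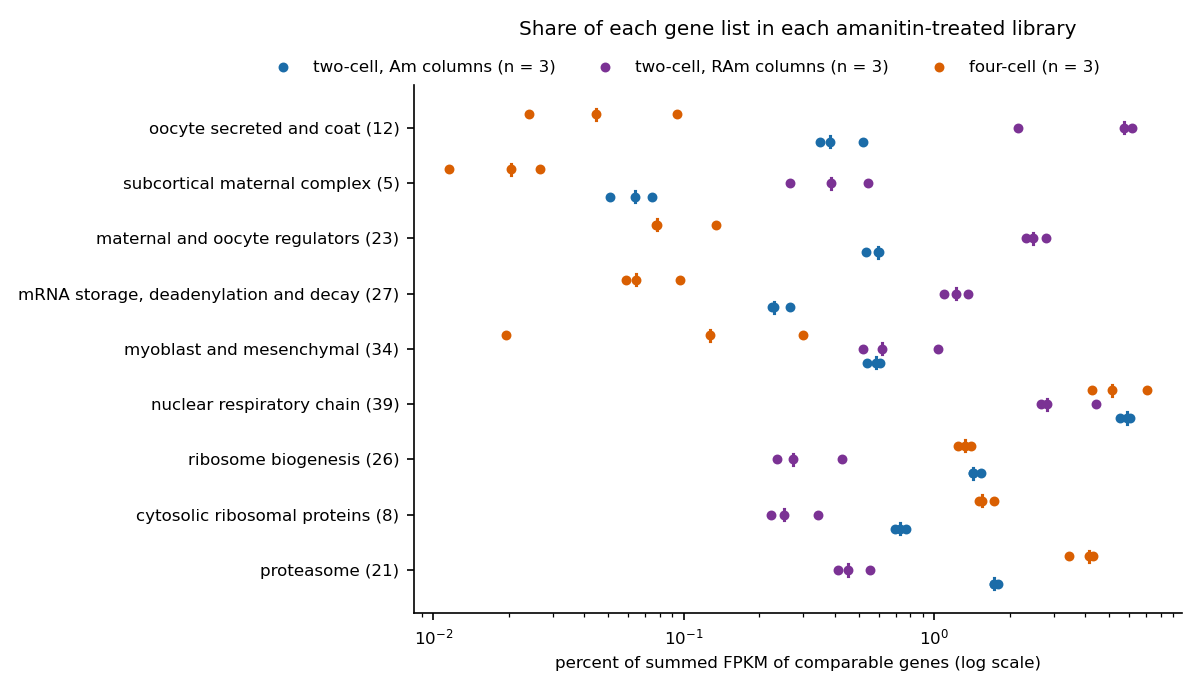
Percent of the summed FPKM of comparable genes (x axis, log scale) taken by 9 gene lists in each treated library, with the number of genes in brackets and ticks at the medians. The maternal lists are ordered four-cell, Am, RAm from low to high, and the proteasome and ribosomal protein lists in reverse.

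Most members of the proteasome list were higher in four-cell libraries as deposited. Of 31 subunits, 26 were called in that direction as deposited and 0 in the other, with a median difference of -3.11 on the log2 scale. Over the comparable genes these were 9 of 21 (median difference -1.96), 2 of 21 with Am alone and 18 of 21 with RAm alone. The 21 genes took 1.74% to 1.79% of the summed FPKM of comparable genes in Am, 0.411% to 0.555% in RAm and 3.44% to 4.29% in four-cell libraries. Psma6, a subunit of the outer ring of the core particle, had 419, 390.3 and 379 FPKM in Am, 29.1, 7.43 and 17.7 in RAm, and 1738, 2052 and 1680.0 in four-cell libraries. Psmd6, a lid subunit of the regulatory particle, had 33.5, 19.2 and 16.5 in Am, 0.832, 2.27 and 0.716 in RAm, and 199, 174 and 102 in four-cell libraries. Psmb1, of the inner ring, had 100, 91.1 and 95.2 in Am, 5.83, 7.35 and 5.37 in RAm, and 960.3, 1011 and 754 in four-cell libraries. The order four-cell, Am, RAm held for all 3 genes without overlap.

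Cytosolic ribosomal protein genes are hard to count, because many processed pseudogenes copy them, and only 8 of 79 were comparable genes. As deposited 45 of 79 were higher in four-cell and 0 in two-cell libraries (median difference -2.17), and 2 of the 8 comparable genes were (-1.24), 0 with Am alone and 3 with RAm alone. Rps3, of the small subunit, had 74.3, 63.4 and 75.7 FPKM in Am, 13.97, 18.4 and 10.4 in RAm, and 481, 533 and 454 in four-cell libraries. Genes of ribosome biogenesis had 12 of 36 called higher in four-cell libraries as deposited and 2 of 25 over the comparable genes (-0.22), 0 with Am alone and 8 with RAm alone. Their share over the comparable genes was 1.43% to 1.53% in Am and 1.24% to 1.41% in four-cell libraries, higher in Am without overlap, but 0.236% to 0.427% in RAm. Ddx56, a nucleolar helicase, had 10.4, 7.45 and 11.6 FPKM in Am, 1.46, 1.74 and 0.960 in RAm, and 67.2, 54.9 and 24.6 in four-cell libraries.

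Nuclear genes of the respiratory chain had 1 of 39 comparable genes higher in two-cell and 2 in four-cell libraries (median difference -0.48). With Am alone these were 1 and 0 (-0.033), and with RAm alone 1 and 9 (-0.94). All comparable genes gave 9.95% and 3.99% with both sets, so that the list was near or under the share of all genes there. Their share was 5.51% to 6.05% in Am, 2.67% to 4.41% in RAm and 4.25% to 7.07% in four-cell libraries. As deposited 30 of 70 were higher in four-cell libraries. Ndufs7, a core subunit of complex I, had 34.7, 22.1 and 38.0 FPKM in Am, 4.88, 1.98 and 3.38 in RAm, and 167, 206 and 253 in four-cell libraries. Of chaperones, 3 of 11 comparable genes were higher in four-cell libraries, 2 with Am alone and 3 with RAm alone. Cct5, a subunit of the chaperonin that folds actin and tubulin, had 47.0, 25.2 and 42.7 in Am, 22.2, 7.17 and 6.05 in RAm, and 286, 300.2 and 187 in four-cell libraries. Subunits of Pol II, the target of the toxin, had 3 of 11 called higher in four-cell libraries as deposited, and of 2 comparable genes 0, or 1 with RAm alone. Polr2a, the subunit that α-amanitin binds, was at or under 1.49 FPKM in all 9 libraries.

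Genes of the two-cell burst of transcription, switched on when the embryonic genome is activated, had 6 of 28 higher in two-cell and 2 in four-cell libraries as deposited, where all genes gave 11.7% and 10%. The 2 are thus under the share of all genes, and most are members of families with copies. Only 3 were comparable genes, 0 of them called, and 1 was higher in four-cell libraries with RAm alone. Zscan4d, a zinc finger gene of the two-cell stage with 34.5% of its windows unique, had 10.4, 14.04 and 15.6 FPKM in Am, 11.2, 6.54 and 1.12 in RAm, and was listed at 0 in each four-cell library. Dppa2, an activator of that programme with 63.4% of its windows unique, had 34.5, 45.5 and 26.8 in Am, 4.79, 8.80 and 1.85 in RAm, and 304, 249 and 203 in four-cell libraries. Regulators of lineage and pluripotency gave 0 of 20 higher in two-cell and 4 in four-cell libraries as deposited, and 0 of 13 comparable genes in either direction, with 1 higher in four-cell libraries for RAm alone. Immediate early genes gave 0 of 9 in either direction as deposited, and 2 of 7 comparable genes higher in two-cell libraries with Am alone and 0 with RAm alone.

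Donor RNA could not be separated from embryonic RNA by these values. Myf5, Myf6 and Cdh15, which define myoblasts, were at 0 in all treated libraries, and Myod1 was at most 0.454 FPKM in two-cell libraries and 0.173, 7.09 and 0 in four-cell libraries. The whole myoblast and mesenchymal list took 0.537% to 0.608% of the summed FPKM of comparable genes in Am, 0.519% to 1.04% in RAm and 0.0196% to 0.298% in four-cell libraries, with 5 of 18 comparable genes higher in two-cell and 0 in four-cell libraries, 5 with Am alone and 7 with RAm alone. All comparable genes gave 9.95% and 3.99% with both sets. As deposited the list's share was 0.529% to 0.619% in Am, 0.195% to 0.284% in RAm and 0.0406% to 0.583% in four-cell libraries, so that the stages overlapped. There 1 of 22 was higher in two-cell and 1 in four-cell libraries, under the 11.7% and 10% of all genes. Vim, vimentin of mesenchymal and other cells, had 49.5, 52.3 and 66.3 FPKM in Am, 27.6, 42.2 and 27.9 in RAm, and 2.58, 2.41 and 5.84 in four-cell libraries. The four-cell libraries differed among themselves. S100a4, a calcium-binding protein with 51.5% of its windows unique, had 2.21 in S16, 10.5 in S18 and 1031 in S8, against 1734 to 2177 in Am and 263 to 742 in RAm. S100a6, also calcium binding, had 9.20, 34.8 and 295 in the same 3 four-cell libraries. Pools differ in embryos, and in such bulk samples fewer cells of a type and less RNA per cell cannot be told apart. Of 12 cumulus and granulosa genes, 1 was tested, Amhr2, a receptor of the ovary, with 8.68, 12.5 and 10.3 FPKM in Am, 0.369, 0 and 1.07 in RAm, and 19.97, 31.6 and 14.5 in four-cell libraries. Of 12 sperm genes, 3 were tested and 0 called, and 1 of 2 comparable genes was higher in two-cell libraries with Am alone and 1 with RAm alone. The part of other cells in the differences between stages was not tested.

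Whether these RNAs also differed from untreated embryos was asked within each table, where limma could be used. Untreated two-cell libraries were the NT and R columns, whose names lack the letters Am. In two-cell embryos 272 of 17196 genes were higher (1.58%) and 1906 lower (11.1%) with α-amanitin. The balance depends on scaling, with 295 higher (4.29%) and 294 lower (4.27%) of 6878 rescaled comparable genes, 752 higher and 855 lower with medians of ratios, and 28 higher (0.151%) and 5899 lower (31.9%) of 18500 genes scaled to the ERCC spike-ins, which per the labels were added to the lysate of each pool. The spike-ins took 6.535% to 11.25% of the reads of treated and 2.38% to 6.256% of untreated two-cell libraries. In four-cell embryos 36 of 9884 genes were higher (0.364%) and 613 lower (6.20%), and over the comparable genes 9 (0.169%) and 314 (5.90%) of 5324. Without PBS libraries S15, S17 or S7 in turn, the 613 became 78, 122 and 55 and the 36 became 10, 5 and 5. Without treated libraries S16, S18 or S8 the 36 became 53, 9 and 20. The median log2 difference over all genes tested was -0.67 in two-cell and -0.37 in four-cell embryos as deposited, and -0.19 and -0.38 over the rescaled comparable genes. P-values measure the spread between these pools, which the study describes as independent biological replicates. In the two-cell contrast Am and RAm were set together against NT and R. The spread there thus also holds the difference between column sets, and so between early and late NT. With the column-name sets as a block, 275 genes were higher and 1925 lower.

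Genes of 3 maternal lists were higher with α-amanitin in two-cell embryos on the scale of comparable genes. Of the oocyte coat and secreted list, 7 of 11 were higher there (median log2 difference 2.57), of the subcortical complex 5 of 5 (2.10) and of the maternal regulators 11 of 21 (2.12). In four-cell embryos these were 0 of 9 (1.16), 0 of 4 (0.53) and 1 of 17 (0.16). At an unadjusted p under 0.05 in limma and with no fold minimum, 4 of the 9 were higher and 0 lower, and 0 of the 4 higher or lower. The cell cycle genes of the oocyte gave 1 of 15 higher and 2 lower in two-cell embryos (-0.66), and 2 of the 15 higher and 8 lower at an unadjusted p under 0.05 in limma. As deposited 1 of 23 of these cell cycle genes was higher and 8 lower (-1.41), and on the spike-in scale 1 and 14 (-2.20). All genes gave 11.1% and 31.9% lower on these scales. For the 3 maternal lists, the spike-in scale gave 0 of 12, 0 of 8 and 1 of 36 higher in two-cell embryos, and 3 of the 36 lower, so these calls rest on the scale. At an unadjusted p under 0.05, limma gave 2 of the 12, 1 of the 8 and 5 of the 36 as higher there, and 0, 1 and 11 as lower. The medians on that scale were 0.24, 0.44 and 0.08, against -1.40 over all genes tested. Unc13c was 4.10 higher on the log2 scale with α-amanitin in two-cell embryos over rescaled values (adjusted p = 0.0024), and 0.54 in four-cell embryos (adjusted p = 0.59). Whether the effects differ between the stages was not tested.

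Genes of the two-cell burst fell under α-amanitin in both tables, 23 of 32 in two-cell embryos and 10 of 18 in four-cell embryos as deposited, with 0 higher in either by limma. At an unadjusted p under 0.05, 2 were higher in two-cell and 0 in four-cell embryos. Dppa2 fell by 4.14 on the log2 scale in two-cell embryos (SE 0.67, adjusted p = 0.0006), and in four-cell embryos the value was -0.54 (SE 0.22, adjusted p = 0.14). Of the p53 targets, genes of the DNA damage response, 2 of 7 comparable genes were higher in two-cell than in four-cell libraries, both together and with either set alone. All comparable genes gave 9.95%, 10.8% with Am alone and 21.8% with RAm alone. As deposited 0 of 9 were higher in two-cell and 1 in four-cell libraries (median difference -0.22). The share of the p53 targets was then lower at the two-cell stage, 0.00454% to 0.0119% against 0.0224% to 0.0227% of the summed FPKM. With α-amanitin 8 of 12 fell in four-cell embryos and 2 of 11 in two-cell embryos as deposited, where the spike-in scale gave 7 of 13 and the comparable genes 0 of 8, 2 of these lower and 1 higher at an unadjusted p under 0.05 in limma. Cdkn1a, which encodes the inhibitor p21, had 13.6, 14.6 and 13.0 FPKM in treated four-cell libraries against a median of 239 without α-amanitin (log2 difference -3.61, SE 0.37, adjusted p = 0.0025). In two-cell embryos it had 9.94 to 15.3 in Am and 0.745 to 3.49 in RAm.

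Proteasome subunits, higher in treated four-cell embryos, fell in 13 of 31 cases with α-amanitin in two-cell and in 0 of 31 in four-cell embryos as deposited (medians -1.80 and -0.17). Over the comparable genes these were 3 of 21 and 0 of 21. All genes gave 11.1% and 6.20% lower as deposited, and 4.27% and 5.90% over the comparable genes. The two-cell counts join both column sets. The 21 genes took 1.74% to 1.79% of the summed FPKM of comparable genes in Am and 2.01% to 2.47% in NT. They took 0.411% to 0.555% in RAm and 2.13% to 2.36% in R. Am against NT and RAm against R were not tested. Psma6 had 379 to 419 FPKM in Am, 7.43 to 29.1 in RAm, and medians of 560.5 in NT and 728 in R. In four-cell libraries it had a median of 1586 without α-amanitin, against 1680.0 to 2052 with it (log2 difference 0.25, SE 0.18, adjusted p = 0.38). Ribosomal protein genes fell in 15 of 79 cases in two-cell and 0 of 79 in four-cell embryos. In two-cell embryos 30 of the 31 subunits and 74 of the 79 ribosomal protein genes were lower on the spike-in scale, where 31.9% of all genes were, and 0 of the 8 comparable ribosomal protein genes over rescaled values, 6 of them lower at an unadjusted p under 0.05. At an unadjusted p under 0.05 in limma, 2 of the 31 subunits were lower and 0 higher in four-cell embryos, and 0 of the 79 ribosomal protein genes lower and 21 higher.

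The difference between Am and RAm was within 1 table and could be tested, a contrast chosen after the data had been seen. Of 12906 genes, 568 were higher (4.40%) and 2760 lower (21.4%) in RAm than in Am, and over 5323 comparable genes 449 (8.44%) and 488 (9.17%). The median log2 difference over all genes tested was -0.97 as deposited and -0.14 over the rescaled comparable genes. With medians of ratios 1299 were higher and 1138 lower, and with spike-in scaling 393 (3.02%) and 3737 (28.7%). Of the maternal lists, 3 were on the higher side over the comparable genes, with 7 of 11 oocyte coat and secreted genes, 4 of 5 genes of the subcortical complex and 10 of 20 maternal regulators higher and 0 lower in each. At an unadjusted p under 0.05, limma gave 1 of the 20 regulators as lower, and 0 of the other lists. On the spike-in scale 4 of 14 coat and secreted genes, 0 of 8 genes of the complex and 3 of 35 regulators were higher and 1, 0 and 4 lower, and as deposited 4, 1 and 6 were higher and 1, 0 and 4 lower. The 0 of 8 were 6 higher and 0 lower at an unadjusted p under 0.05. The cell cycle genes of the oocyte went the other way, with 1 of 12 comparable genes higher and 5 lower (median log2 difference -0.49), and 3 higher and 5 lower at an unadjusted p under 0.05. Wee2 was 4.85 higher on the log2 scale in RAm (SE 0.29, adjusted p = 2.4e-05) and Unc13c 3.85 higher (SE 0.19, adjusted p = 1.7e-05). On the lower side stood 6 of 21 proteasome subunits and 6 of 23 genes of ribosome biogenesis. As deposited these were 24 of 31 and 23 of 34, and on the spike-in scale 26 of 31 and 24 of 35. Ribosomal protein genes were lower in 36 of 79 cases as deposited and 64 of 79 on the spike-in scale, and in 0 of 8 over the comparable genes, or 8 of 8 at an unadjusted p under 0.05. The respiratory chain had 3 of 39 lower over the comparable genes, under the 9.17% of all of them, but 26 of the 39 at an unadjusted p under 0.05 in limma, 21 of 70 as deposited and 39 of 70 on the spike-in scale. In each of these lists 0 were higher, also at an unadjusted p under 0.05 in limma. Gcsh, of the glycine cleavage system, had 1186, 1216 and 1085 FPKM in Am and 42.4, 33.4 and 23.3 in RAm (rescaled log2 difference -4.22, SE 0.22, adjusted p = 1.8e-05). In four-cell libraries it had 6954, 7328 and 6524.

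The U-rich element was found in 23.5% of genes higher in RAm than in Am and in 15.6% of those lower, against 21.4% of all comparable genes tested in this contrast, with A and T bases at 66.4%, 62.6% and 64.8%.

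**Figure D5:**
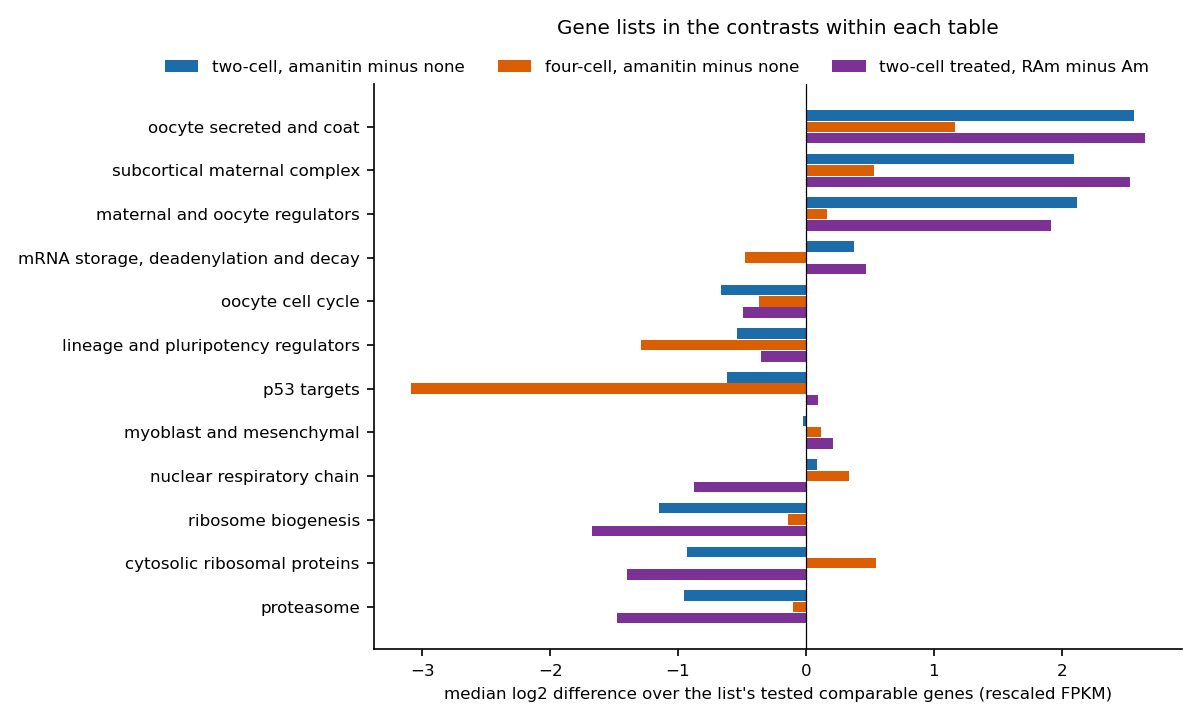
Median log2 difference over the tested comparable genes of 12 lists (x axis, rescaled FPKM), for α-amanitin against none in two-cell (blue) and four-cell embryos (orange), and for RAm against Am (purple). The 3 maternal lists lie to the right for both two-cell contrasts, at 1.92 to 2.65, and p53 targets lie at -3.09 in four-cell embryos.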

How the data were processed

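RNA-seq libraries were made by the submitters from pools of NT embryos with SMART-seq chemistry. Per the submitters' processing notes, Trimmomatic, Trim Galore, cutadapt, STAR and featureCounts were used with mm10. Versions are not given in the sources used here. FPKM per gene were deposited by the authors, who calculated them within each library. The deposited two-cell table holds 55456 rows, 92 of them ERCC spike-ins, and 53023 genes are in that of the four-cell embryos, without spike-ins. Genes were joined by identifier (52577 shared), and names differed for 7.54% and lengths for 5.41% of them. How reads that map to several genes were shared out is not given in the sources used here.

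Genes were tested where 3 or more libraries of a comparison reached an FPKM of 1. Values were log2(FPKM + 1), so fold changes of low genes are understated. Between tables, differences are described without a test. Within tables, limma 3.58.1 (R 4.3.3, mean-variance trend) was used with Benjamini-Hochberg adjustment, and calls needed an adjusted p under 0.05 and at least 4-fold, the criteria of the study. The limma script was tested on simulated data. Comparable genes had lengths within 5% between tables, and GENCODE vM21 matched 50979 of 52918 genes by coordinates (96.34%). Depth is 1136771 to 10503760 reads per library, recovered from FPKM and gene length. Python 3.11.15 was used with pandas 2.3.3, numpy 2.4.6 and scipy 1.17.1.

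Members and gene lists were chosen with earlier results of these data known, and the lists carry no independent support. The genes named were the 10 with the largest differences in each direction, leaving out models without a proper name, the 5 with the highest median FPKM of those in both tables, and up to 4 called members of each list. Other members were named after their values were seen. The comparable genes and the contrast of RAm with Am were chosen after seeing the data.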

Additional observations from a re-analysis of the deposited data

Results flagged for a closer look

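In 4 cases the highest of the 6 treated two-cell libraries stood far from the others by Dixon's criterion. Its rate of about 1 in 20 groups by chance holds for normal values of a single group. It does not hold here, where Am and RAm are joined and many genes and lists were searched. Where 1 value is above 0 and all others are 0, as for Sycn and Smpdl3a, the criterion is always met. Sycn was listed at 0.912 FPKM in Am3 and at 0 in the other 5 libraries. Crygs, named for a lens crystallin, had 3.15 FPKM in Am1, 0.122 in Am2 and 0 in the others. Smpdl3a, a phosphodiesterase, had 2.58 FPKM in RAm2 and was listed at 0 elsewhere. The share of the myoblast and mesenchymal list in the summed FPKM of comparable genes was 1.04% in RAm2 against 0.519% to 0.616% in the others. The values of Sycn, Crygs and Smpdl3a stayed under the lowest four-cell values, 415, 69.2 and 37.8 FPKM.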

How the results depend on the processing

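Direction and call held in most of the settings tried, and large differences depend most on which libraries and genes are used. Genes higher in two-cell libraries numbered 892 at 8-fold, 2595 with Am alone, and over the comparable genes 596, or 645 with Am alone. Genes higher in four-cell libraries numbered 567 at 8-fold, 729 with Am alone, 2548 with RAm alone, 2402 with shared genes rescaled, and over the comparable genes 239, 121 with Am alone and 644 with RAm alone. Without each library in turn they ranged from 1482 to 1828 and from 957 to 1649. Ccne1 turned to 0.41 over comparable genes with Am alone. Of the single-gene values, 2271 kept direction and call, 118 moved, 52 lost the call and 1 turned.

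The log2 ratio of list shares, two-cell over four-cell, moved over the comparable genes to 4.91 for oocyte coat, 3.06 for the subcortical complex, 3.40 for decay factors, -0.51 for ribosome biogenesis, -0.043 for the respiratory chain and -1.85 for the proteasome, and turned to 4.23 for maternal regulators. As shares of reads it was -0.48 for maternal regulators and 0.95 for decay factors. Without each library in turn it ranged from 0.69 to 0.91 for oocyte coat, -0.068 to 0.60 for the subcortical complex (turned without any RAm library), -2.59 to -1.54 for regulators, -0.20 to 0.34 for decay factors (turned without any RAm library, S18, at -0.14, or S8, at -0.19), -4.44 to -1.78 for biogenesis, -4.22 to -1.997 for ribosomal proteins, -2.99 to -1.55 for the respiratory chain, -5.44 to -2.78 for the proteasome, 0.20 to 2.28 for myoblast, -3.33 to -1.53 for cumulus and 1.81 to 3.48 for sperm genes. Spearman's rho had medians of 0.49 for Am and RAm, 0.48 for Am and four-cell, 0.80 within RAm, 0.20 for RAm and four-cell and 0.83 within four-cell libraries, and Pearson's r over comparable genes was 0.54 for Am and RAm and 0.73 for Am and four-cell.

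Within the two-cell table, genes higher and lower with α-amanitin numbered 639 and 4411 with a pseudocount of 0.1, 752 and 855 with medians of ratios, 28 and 5899 with spike-in scaling and 295 and 294 over the comparable genes, and ranged from 182 to 380.0 and from 1367 to 2472 without each library. In four-cell embryos they were 5 and 259 without a filter and 9 and 314 over the comparable genes, and ranged from 5 to 53 and from 55 to 836. RAm against Am gave 951 and 4401 with a pseudocount of 0.1, 1299 and 1138 with medians of ratios and 449 and 488 over the comparable genes, and ranged from 408 to 594 and from 2097 to 3036. With the replicate number as a block, the two-cell contrast gave 273 higher and 1878 lower. Same-numbered libraries correlated at 0.0149 to 0.0654 in their deviations from the set means, all under 0.1, so they were not treated as paired. No block was possible in the four-cell table, whose columns carry other numbers, and DESeq2 was not run on FPKM. Causes were not tested. The 1136771 reads of the shallowest four-cell library limit low values there most.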
